A study of Homo sapiens with 36 samples.

Results

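Expression of 57 genes of the splicing machinery was followed through 3 RNA-seq experiments on cisplatin-resistant testicular germ cell tumor cells. The genes were chosen by name: protein-coding rows whose NCBI symbol begins with SRSF, HNRNP, SF3A, SF3B, U2AF or SNRP and ends in the family's letters or numbers, with the imprinted gene SNRPN left out. Of 61 protein-coding RefSeq genes that carry such a symbol, 57 had a row in at least 1 of the 3 tables and 56 in all 3. HNRNPCL1 was listed in 1 table only, and HNRNPCL2, HNRNPCL3, HNRNPCL4 and U2AF1 were not analysed here. The tables held 16431, 17035 and 16459 genes in all. The members fell into 12 SR proteins, 22 hnRNPs (23 in the table with HNRNPCL1), 11 genes of the SF3 and U2AF group and 11 Sm and other snRNP proteins.

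The study asked whether blocking the histone demethylases KDM6A and KDM6B, which remove the repressive mark H3K27me3, makes resistant cells respond to cisplatin. The first 2 experiments each used a single cisplatin-resistant clone of a human embryonal carcinoma line, NT2/D1-A4 in the former and 2102EP-C1 in the latter, and the cells formed 4 arms: no drug, cisplatin alone (0.5 µM over 6 h), GSK-J4 alone (1 µM over 3 days) and the same course of GSK-J4 with cisplatin at its end. GSK-J4 is a small molecule inhibitor of both demethylases. In the third, 2102EP-C1 cells carried either the empty lentiviral vector pLKO1 or hairpins against both genes (sh6A+6B), and either kind was harvested with or without the same cisplatin course. Cells were harvested the day after cisplatin. Each of the 4 arms of each experiment had 3 libraries, described in the labels as biological triplicates, 36 in all. Below, "pretreatment" stands for GSK-J4 in the first 2 experiments and for sh6A+6B in the third, and "combination" for pretreatment followed by cisplatin. Within an experiment the comparisons share libraries, and the 3 tables were normalized separately, so values from different tables are set side by side without a test.

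Splicing removes introns through the spliceosome, which is assembled from small nuclear ribonucleoproteins (snRNPs), most of them an RNA held by a ring of Sm proteins. U1 marks the start of an intron, the U2AF proteins mark its end, and the SF3A and SF3B complexes fasten U2 to the branch point. SR proteins bind exons and mostly favour their inclusion, while hnRNPs coat newly made transcripts and often work against SR proteins, so the balance between the families sets which exons a cell keeps. Embryonal carcinoma cells resemble pluripotent stem cells and divide quickly.

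Values are the authors' log2 CPM, the reads of a gene scaled to a common library total. A member was said to fall or rise when limma, fitted on log2 CPM over all genes of the table with the Benjamini-Hochberg adjustment, gave an adjusted p below 0.05. Shares of all genes printed beside the counts come from this fit, and they are not given for the alternative fits named below. Libraries held 26842718 to 49521740 reads in NT2/D1-A4, 30250275 to 53645086 in 2102EP-C1 and 79382033 to 100872653 in the knockdown experiment. In the knockdown table KDM6A was at 7.16, 7.17 and 7.14 log2 CPM with pLKO1 and at 6.14, 6.09 and 6.2 with sh6A+6B, and KDM6B at 4.61, 4.66 and 4.63 against 3.51, 3.60 and 3.75. Summed pluripotency markers (11 of 12 listed) lay between 10225 and 13135 CPM in untreated cells of the 3 tables, and the leukocyte markers PTPRC, CD3E, CD14 and LYZ were in no table. These are bulk libraries, in which fewer cells of a type and less RNA per cell cannot be told apart.

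The members were among the abundant transcripts of these cells. In every table, 50 of them had a mean of at least 5 log2 CPM, and only HNRNPH2, and HNRNPCL1 where listed, had a mean under 1. Per kilobase of the canonical transcript, the untreated medians of the SR proteins were 79.3, 80.2 and 78.9 RPKM (CPM per kilobase) in NT2/D1-A4, 2102EP-C1 and pLKO1 cells. The hnRNPs had medians of 153.5, 118.9 and 141.4 RPKM, the SF3 and U2AF genes 82.6, 83.2 and 80.0 RPKM, and the Sm and snRNP genes 97.6, 98.3 and 95.4 RPKM. HNRNPA2B1, an RNA-binding protein that packages nascent transcripts, led in 2102EP-C1 and pLKO1 cells at 687.7 and 678.9 RPKM. SNRPF, a Sm ring protein, led in NT2/D1-A4 at 696.2 RPKM (range 686.6 to 705.0), clear of HNRNPA2B1 at 571.0 (570.7 to 589.0), which did not overlap HNRNPK below it (555.6 to 564.2). At the other end stood U2AF1L4, SRSF8, HNRNPA1L2, SRSF12 and HNRNPH2, all below 7 RPKM in the 3 tables, whose values rest on fewer reads. HNRNPH2 overlaps the readthrough gene RPL36A-HNRNPH2 on the same strand, and U2AF1L4 and HNRNPA1L2 each overlap another gene on theirs. How reads in such overlaps were counted is not given in the sources used here, so these low levels are uncertain.

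Short motifs before the start site were counted in each family, as a description with no test. RefSeq promoters on GRCh38.p14 were listed for 52 of the 57 members, with none for HNRNPA1, HNRNPA1L3, SF3B3, SNRPD1 and SRSF2. A window was used only where it ended at the start of the RefSeq gene, which left out HNRNPF, SNRPE and SNRPG, whose listed starts lie inside the gene, and kept 49 members and 24883 genes in all. The 250 bases before the start were searched on both strands for 4 short motifs, which were picked after counts of several motifs had been seen. CCGGAAG is a form of the site of ETS family transcription factors, which share the shorter core GGAA. It was in 5 of 8 windows of the Sm and snRNP genes and in 7 of 10 of the SF3 and U2AF genes. The SR proteins had it in 2 of 11, the hnRNPs in 2 of 20, and all genes with a window in 8.81%. CCAAT, the NF-Y core, was in 14 of 20 hnRNP windows, 4 of 8 Sm, 2 of 11 SR and 1 of 10 SF3 and U2AF windows, against 33.4% of all genes. GGGCGG, the GC box of SP1, was in 75% of hnRNP, 70% of SF3 and U2AF, 50% of Sm and 36.4% of SR windows, against 41.7% of all genes. The E-box CACGTG was in 30% of hnRNP, 10% of SF3 and U2AF, 0% of Sm and 0% of SR windows, against 6.43%. A match describes letters in the window and is not evidence of a bound site. The windows of 5 genes (5′ to 3′ along the gene, lower case, with CCGGAAG or its reverse complement CTTCCGG in capitals) are given for 3 Sm and snRNP genes whose response to cisplatin differed between pLKO1 and sh6A+6B cells, and for HNRNPUL2 and SRSF8, which moved against most members in the comparisons described further on. They lie at chr20:2470790-2471039 (minus strand, SNRPB), chr19:45692317-45692566 (minus, SNRPD2), chr20:16729776-16730025 (plus, SNRPB2), chr11:62727458-62727707 (minus, HNRNPUL2) and chr11:95066627-95066876 (plus, SRSF8). The motif begins 41 bases before the start in SNRPB, 63 in SNRPD2, and 95 and 22 in SNRPB2. The windows of HNRNPUL2 and SRSF8 hold no copy of these 7 bases. Both hold the shorter GGAA or its reverse complement, within CGGAAG in HNRNPUL2, and such matches were not counted. These windows do not stand for all members. SNRPC and SNRPA1 also hold CCGGAAG and responded more upward to cisplatin with sh6A+6B (0.22 and 0.14). SRSF7, SRSF3 and HNRNPC did so without it (0.26, 0.24 and 0.23), and SF3A1 and HNRNPD hold it and responded more downward (-0.14 and -0.09). A link of motif and response was not tested.
SNRPB: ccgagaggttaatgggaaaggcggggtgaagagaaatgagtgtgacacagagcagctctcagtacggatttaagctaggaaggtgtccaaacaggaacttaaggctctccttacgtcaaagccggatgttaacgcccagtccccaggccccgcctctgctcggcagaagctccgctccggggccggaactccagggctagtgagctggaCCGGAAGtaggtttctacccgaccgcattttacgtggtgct
SNRPD2: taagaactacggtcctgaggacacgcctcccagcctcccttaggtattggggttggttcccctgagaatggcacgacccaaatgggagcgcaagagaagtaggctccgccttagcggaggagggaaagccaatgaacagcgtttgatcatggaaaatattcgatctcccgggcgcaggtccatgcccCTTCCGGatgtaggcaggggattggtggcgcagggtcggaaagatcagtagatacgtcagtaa
SNRPB2: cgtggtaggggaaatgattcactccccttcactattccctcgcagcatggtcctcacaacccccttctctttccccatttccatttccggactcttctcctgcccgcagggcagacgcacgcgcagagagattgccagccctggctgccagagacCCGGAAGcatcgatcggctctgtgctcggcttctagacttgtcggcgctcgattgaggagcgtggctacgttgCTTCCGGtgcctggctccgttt
HNRNPUL2: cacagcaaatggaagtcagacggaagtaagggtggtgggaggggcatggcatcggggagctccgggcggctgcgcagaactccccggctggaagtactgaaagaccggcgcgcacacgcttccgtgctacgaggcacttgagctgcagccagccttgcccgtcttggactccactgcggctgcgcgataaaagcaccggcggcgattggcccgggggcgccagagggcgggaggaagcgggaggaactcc
SRSF8: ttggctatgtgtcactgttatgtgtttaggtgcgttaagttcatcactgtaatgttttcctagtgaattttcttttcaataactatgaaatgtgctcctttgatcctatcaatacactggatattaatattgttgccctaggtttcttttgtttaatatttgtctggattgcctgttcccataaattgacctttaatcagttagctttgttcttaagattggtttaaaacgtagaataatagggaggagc

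GSK-J4 alone lowered most of the members in both cell lines, by small amounts. In NT2/D1-A4 cells 36 of 56 members fell and 2 rose, which is 64.3% and 3.57% of them, where 23.8% of all genes fell and 24.5% rose. Of the genes averaging 5 log2 CPM or more, a level that 50 of the members reach, 41.8% fell and 21.2% rose. The median log2 change was -0.18 over the members and 0.01 over all genes, and 5 falls and 1 rise were past 1.3-fold, beside 6.48% and 13.8% of all genes. In 2102EP-C1 cells 40 of 57 members fell and 3 rose (70.2% and 5.26%), beside 16% and 19.2% of all genes and 28.2% and 22.4% of those at the higher level. Here the median was -0.14, against 0.00 over all genes, with 1 fall and 2 rises past 1.3-fold, beside 3.12% and 7.79% of all genes. Libraries of the GSK-J4 arm lay wholly below the untreated ones for 41 members in NT2/D1-A4 and 42 in 2102EP-C1, and wholly above for 4 and 3. Of all genes 29.2% lay wholly below and 30.4% wholly above in NT2/D1-A4 (48.4% and 27.2% at the higher level), and 20.8% and 23.8% in 2102EP-C1 (31.8% and 26.1%). Over the fits that left out 1 library each, 35 to 38 members fell in NT2/D1-A4 and 36 to 42 in 2102EP-C1.

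**Figure D1:**
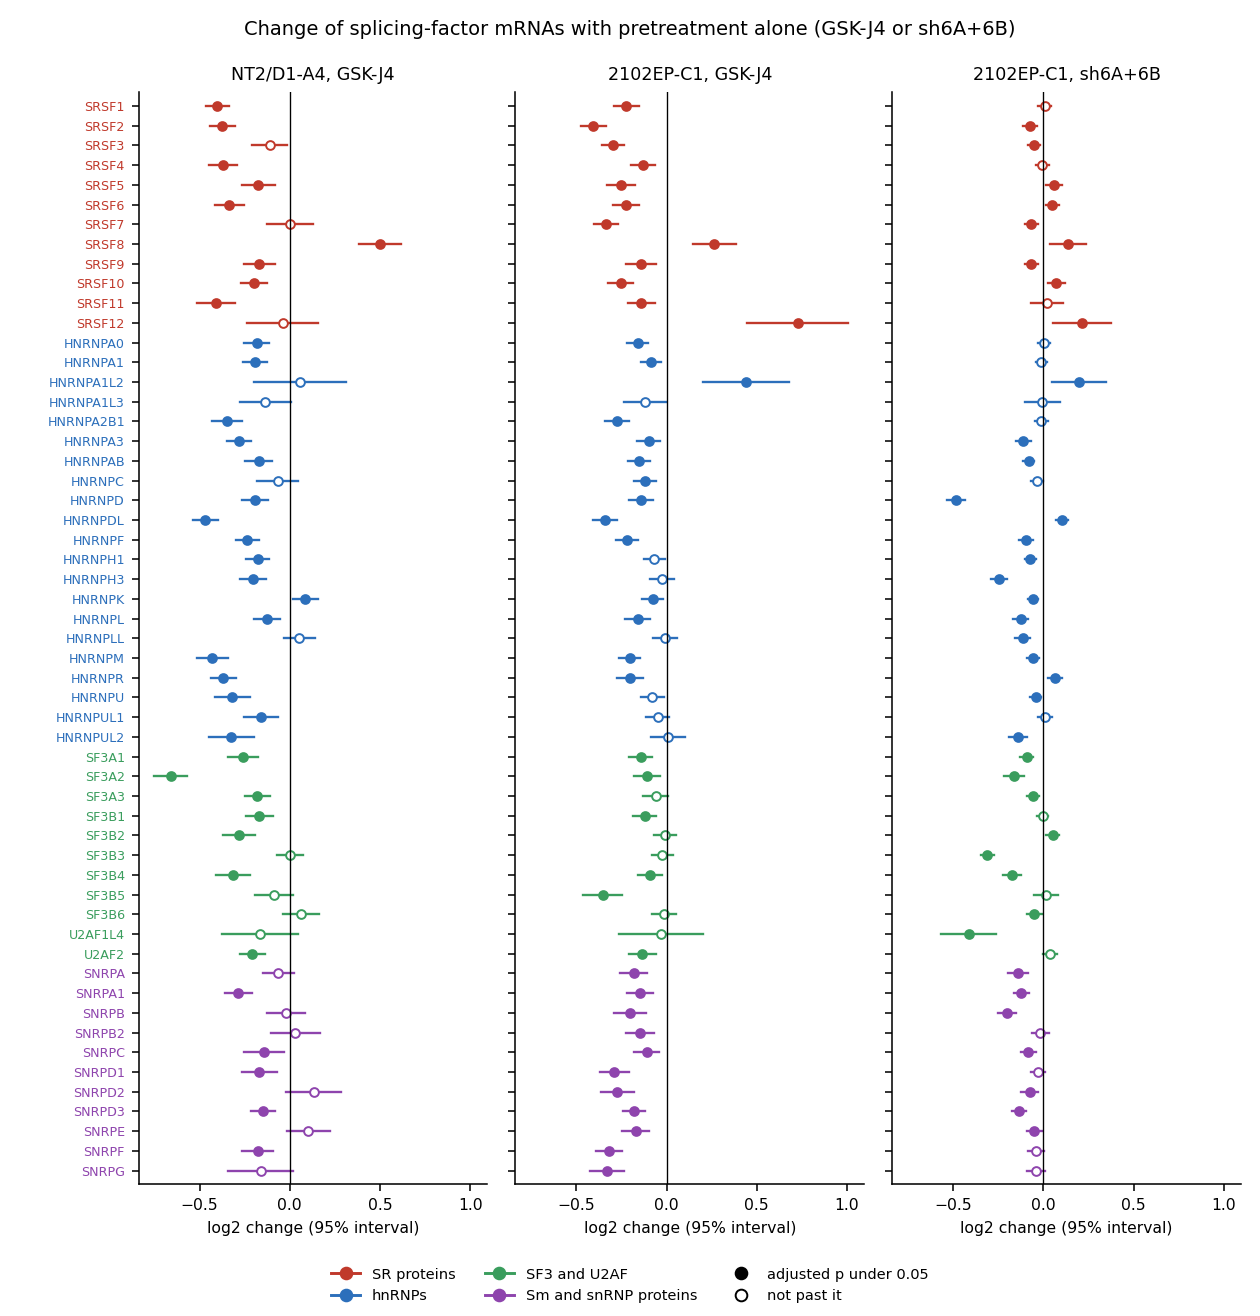
Log2 change with pretreatment alone (x axis, point with 95% interval from limma) for each member with a mean of at least 1 log2 CPM (y axis), in NT2/D1-A4 and 2102EP-C1 with GSK-J4 and in 2102EP-C1 with sh6A+6B, coloured by subfamily, with filled points for an adjusted p below 0.05. Most filled points lie left of 0 in the first 2 panels, SRSF8 lies right of 0 in all 3, and the third panel holds 30 filled points on the left and 9 on the right.

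By family, the calls with GSK-J4 alone were as follows, and differences between the 2 lines were not tested here. Of the SR proteins 8 fell and 1 rose in NT2/D1-A4 (median -0.18), and 10 fell and 2 rose in 2102EP-C1 (median -0.22). The hnRNPs counted 16 falls and 1 rise in NT2/D1-A4 and 13 and 1 in 2102EP-C1, with medians of -0.19 and -0.12. In the SF3 and U2AF group 7 and 6 of 11 fell and none rose, with medians of -0.18 and -0.09. The Sm and snRNP genes counted 5 falls of 11 in NT2/D1-A4 (45.5%, near the 41.8% of all genes at the higher level; median -0.14) and 11 of 11 in 2102EP-C1 (median -0.18). In NT2/D1-A4 the number of Sm and snRNP genes that fell or rose ran from 4 to 7 over the fits without 1 library.

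SRSF2 (GeneID 6427, chr17:76734115-76737411), a founding SR protein that binds exonic enhancers and stays in the nucleus, was the only SR protein to fall past 1.3-fold in 2102EP-C1. There it was at 9.03, 9.02 and 8.96 log2 CPM untreated, 8.79, 8.81 and 8.85 with cisplatin, 8.56, 8.60 and 8.62 with GSK-J4, and 8.29, 8.38 and 8.43 with both. The 4 arms did not overlap and stepped down in that order. GSK-J4 alone lowered it by 0.41 (SE 0.03, adjusted p = 3.41e-10), cisplatin alone by 0.19 and the combination by 0.63 on the log2 scale. In NT2/D1-A4 it was at 9.05, 9.06 and 9.07 untreated and 8.73, 8.67 and 8.66 with GSK-J4, a fall of 0.37 (adjusted p = 2.66e-08). SRSF2 overlaps MFSD11 on the opposite strand, and whether the counting used strand is not given in the sources used here.

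SRSF1 and SRSF11 showed the larger falls among SR proteins in NT2/D1-A4. SRSF1 (GeneID 6426, chr17:57989038-58007246), which steers the choice of splice sites, was at 9.95, 9.95 and 9.93 log2 CPM untreated and 9.54, 9.55 and 9.53 with GSK-J4. Its fall was 0.40 (SE 0.03, adjusted p = 3.98e-09) in NT2/D1-A4 and 0.22 in 2102EP-C1. SRSF11 (GeneID 9295, chr1:70205696-70253052), an SR-type protein that interacts with U2AF, was at 8.31, 8.35 and 8.27 untreated and 8.05, 7.82 and 7.83 with GSK-J4. The 2 arms did not overlap, and the fall was 0.41 (SE 0.05, adjusted p = 2.24e-06), beside 0.14 in 2102EP-C1.

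SRSF8 rose with pretreatment in every experiment. It is a close relative of SRSF2 (GeneID 10929, chr11:95066877-95071225), so reads could be shared between the 2 genes and its counts are uncertain. In NT2/D1-A4 it was at 4.12, 4.2 and 4.13 log2 CPM untreated, 4.27, 4.25 and 4.09 with cisplatin, 4.64, 4.65 and 4.65 with GSK-J4, and 4.62, 4.69 and 4.70 with both, on 519 to 1246 reads a library. All 6 GSK-J4-treated libraries lay above the other 6, and GSK-J4 alone raised it by 0.50 (SE 0.05, adjusted p = 5.17e-07). In 2102EP-C1 it was at 3.78, 3.77 and 3.70 untreated, 4.0, 3.97 and 4.03 with cisplatin, 4.06, 3.99 and 4.0 with GSK-J4, and 4.31, 4.16 and 4.25 with both. Cisplatin alone and GSK-J4 alone raised it by 0.25 and 0.26 (adjusted p = 0.0106 and 7.67e-04), and the combination by 0.49.

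SRSF12, a divergent SR-type protein that can oppose the classical members (GeneID 135295, chr6:89095959-89118071), showed the largest rise of any member in 2102EP-C1. It was at 1.01, 1.04 and 0.93 log2 CPM untreated, 0.80, 0.48 and 0.80 with cisplatin, 1.63, 1.65 and 1.88 with GSK-J4, and 1.85, 1.59 and 1.66 with both, on 50 to 126 reads a library. GSK-J4 alone raised it by 0.73 (SE 0.14, adjusted p = 1.45e-04), and the GSK-J4 libraries lay above all untreated ones. In NT2/D1-A4 its change was -0.04 (adjusted p = 0.763).

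Among the hnRNPs with a mean above 1 log2 CPM, HNRNPDL fell most in both lines. It is the hnRNP D-like protein (GeneID 9987, chr4:82422564-82430462), which binds AU-rich RNA. In NT2/D1-A4 it was at 9.05, 9.05 and 9.02 log2 CPM untreated, 8.89, 8.91 and 8.91 with cisplatin, 8.63, 8.57 and 8.52 with GSK-J4, and 8.50, 8.47 and 8.44 with both, 4 arms without overlap. GSK-J4 alone lowered it by 0.47 (SE 0.03, adjusted p = 1.68e-09). In 2102EP-C1 the values were 8.99, 8.98 and 8.96 untreated, 8.81, 8.81 and 8.78 with cisplatin, 8.63, 8.60 and 8.67 with GSK-J4, and 8.38, 8.52 and 8.43 with both. These arms did not overlap either, and GSK-J4 alone lowered HNRNPDL by 0.34 (SE 0.03, adjusted p = 4.50e-09).

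HNRNPM (GeneID 4670, chr19:8444975-8489114), a splicing regulator that binds GU-rich sequence, was at 9.74, 9.68 and 9.68 log2 CPM untreated and 9.22, 9.32 and 9.26 with GSK-J4 in NT2/D1-A4. It fell by 0.43 there (SE 0.04, adjusted p = 8.14e-08) and by 0.20 in 2102EP-C1. HNRNPK (GeneID 3190, chr9:83968083-83980615), a poly(C)-binding protein, was the 1 member called in opposite directions in the 2 lines. In NT2/D1-A4 it was at 10.67, 10.65 and 10.66 untreated and 10.75, 10.75 and 10.74 with GSK-J4, a rise of 0.09 (adjusted p = 0.0401) that was lost in 9 of 12 fits without 1 library, with adjusted p up to 0.12. In 2102EP-C1 it was at 10.51, 10.52 and 10.51 untreated and 10.41, 10.41 and 10.48 with GSK-J4, a fall of 0.08 (adjusted p = 0.0314). HNRNPA1L2 (GeneID 144983, chr13:52617525-52643773), a near copy of HNRNPA1 whose reads may come in part from that gene, was at 1.96, 1.76 and 1.95 untreated and 2.48, 2.09 and 2.42 with GSK-J4 in 2102EP-C1, on 131 to 228 reads. Its rise was 0.44 (SE 0.12, adjusted p = 0.00436).

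SF3A2, a subunit of the SF3A complex of U2 (GeneID 8175, chr19:2236824-2248655), had the largest fall of any member in NT2/D1-A4. It was at 6.68, 6.66 and 6.75 log2 CPM untreated, 6.60, 6.61 and 6.51 with cisplatin, 6.02, 6.05 and 6.04 with GSK-J4, and 6.17, 6.05 and 6.05 with both. All GSK-J4-treated libraries lay below all others, and GSK-J4 alone lowered it by 0.66 (SE 0.04, adjusted p = 4.74e-10). In 2102EP-C1 it was at 6.83, 6.86 and 6.85 untreated and 6.75, 6.80 and 6.66 with GSK-J4, a fall of 0.11 (adjusted p = 0.0197). SF3A2 overlaps PLEKHJ1 on the opposite strand. In 2102EP-C1 the largest fall of the group was that of SF3B5, a small subunit of the SF3B complex (GeneID 83443, chr6:144094884-144095573). It was at 5.70, 5.64 and 5.64 untreated, 5.61, 5.70 and 5.59 with cisplatin, 5.41, 5.36 and 5.16 with GSK-J4, and 5.12, 5.07 and 5.17 with both, and GSK-J4 alone lowered it by 0.35 (SE 0.05, adjusted p = 6.17e-06).

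The SF3B subunits were called unevenly. SF3B1 and SF3B4 fell in both lines, by 0.17 and 0.31 in NT2/D1-A4 and by 0.12 and 0.09 in 2102EP-C1, while SF3B3 passed the test in neither (0.00 and -0.02). SF3B6, which touches the branch point (GeneID 51639, chr2:24067586-24076326), was at 6.60, 6.56 and 6.64 log2 CPM untreated and 6.69, 6.67 and 6.64 with GSK-J4 in NT2/D1-A4, a difference of 0.06 (95% interval -0.04 to 0.16, adjusted p = 0.299). SF3B2, which helps to hold U2 on the intron (GeneID 10992, chr11:66052364-66069308), was at 8.36, 8.36 and 8.34 untreated and 8.33, 8.35 and 8.36 with GSK-J4 in 2102EP-C1, a difference of -0.01 (interval -0.07 to 0.05, adjusted p = 0.847) whose sign turned under 3 alternatives. In NT2/D1-A4 the change of SF3B2 was -0.28 (adjusted p = 1.95e-05).

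The Sm and snRNP genes were called more often in 2102EP-C1 than in NT2/D1-A4. SNRPG (GeneID 6637, chr2:70281362-70293740), a ring protein, was at 6.74, 6.75 and 6.83 log2 CPM untreated, 6.71, 6.64 and 6.73 with cisplatin, 6.41, 6.41 and 6.52 with GSK-J4, and 6.23, 6.42 and 6.43 with both in 2102EP-C1. GSK-J4 alone lowered it by 0.33 there (SE 0.05, adjusted p = 3.09e-06), and by 0.16 in NT2/D1-A4, where the test was not passed (SE 0.09, adjusted p = 0.127). SNRPD2, another ring protein (GeneID 6633, chr19:45687454-45692316, overlapped by QPCTL on the opposite strand), was at 7.37, 7.41 and 7.46 untreated and 7.61, 7.53 and 7.51 with GSK-J4 in NT2/D1-A4. These 2 arms did not overlap, and the combination arm, pooled in the fit, had an SD of 0.186. The difference was 0.13 (interval -0.02 to 0.28, adjusted p = 0.137), while in 2102EP-C1 SNRPD2 fell by 0.27 (adjusted p = 3.13e-05). Whether the lines differ was not tested, since their tables were normalized separately.

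Of the proteins proper to single snRNPs, SNRPA1 of U2 (GeneID 6627, chr15:101281510-101295248) fell most in NT2/D1-A4. It was at 6.68, 6.67 and 6.70 log2 CPM untreated and 6.44, 6.40 and 6.35 with GSK-J4, a fall of 0.29 (SE 0.04, adjusted p = 2.60e-06), beside 0.15 in 2102EP-C1. SNRPC of U1 (GeneID 6631, chr6:34757505-34773857), which stabilises the pairing of U1 with the start of the intron, had the smallest fall of its group in 2102EP-C1. It was at 7.08, 7.06 and 7.08 untreated and 6.93, 7.0 and 6.96 with GSK-J4, a fall of 0.11 (adjusted p = 0.0113) that was lost without the first GSK-J4 library (adjusted p = 0.061).

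**Figure D2:**
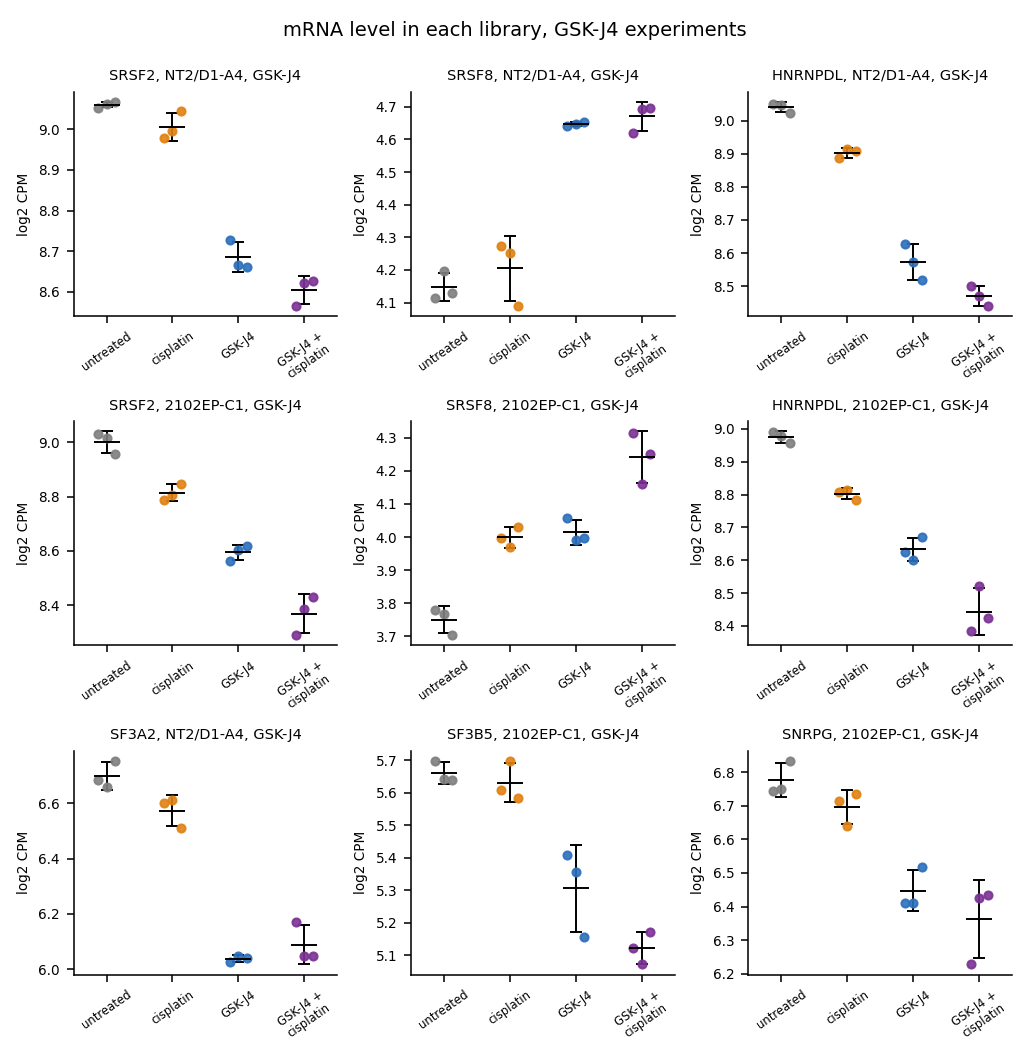
Log2 CPM (y axis) of each library by arm (x axis: untreated, cisplatin, GSK-J4, combination) for SRSF2, SRSF8 and HNRNPDL in both lines, SF3A2 in NT2/D1-A4, and SF3B5 and SNRPG in 2102EP-C1, with points for libraries and bars for mean and SD (n = 3). SRSF2 and HNRNPDL step down from untreated to combination in 2102EP-C1. SRSF8 is higher in both GSK-J4-treated arms of NT2/D1-A4, and in 2102EP-C1 it is highest in the combination.

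The genes that moved in the 2 lines overlapped in part. Of the members with a mean above 1 log2 CPM, 29 fell with GSK-J4 in both lines, 80.6% of the 36 in NT2/D1-A4 and 72.5% of the 40 in 2102EP-C1. The share of all genes that fell in both lines was not counted, and many shared falls follow from the separate counts alone. Only SRSF8 rose in both. Across the 55 members measured in both tables at that level, the 2 sets of log2 changes had a Pearson r of 0.34 and a Spearman rho of 0.19, and across 21 hnRNPs 0.61 and 0.51. Genes are not independent replicates, so no p is attached.

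Markers of dividing and pluripotent cells moved with GSK-J4 as well, and their part in the splicing result was not tested. Of 16 proliferation genes 11 fell and 1 rose in NT2/D1-A4 and 15 fell in 2102EP-C1, and of 11 pluripotency genes 7 fell in each line, with 2 and 1 rises. Of all genes 23.8% fell and 24.5% rose in NT2/D1-A4, and 16% and 19.2% in 2102EP-C1. The summed proliferation list (16 of 16 listed) went from 4635 to 4777 CPM in untreated NT2/D1-A4 to 3800 to 3919 with GSK-J4, and from 4440 to 4566 to 3804 to 4007 in 2102EP-C1. The summed pluripotency list (11 of 12 listed, TDGF1 not) went from 10225 to 10442 CPM to 8855 to 9096 in NT2/D1-A4, and from 12747 to 13135 to 11214 to 11471 in 2102EP-C1. Abundant genes weigh most in such a sum. DNMT3B, on this list, went from a mean of 10.75 to 9.966 log2 CPM in NT2/D1-A4 and from 11.72 to 11.28 in 2102EP-C1. POU5F1 rose by 0.155 in NT2/D1-A4 (adjusted p = 7.37e-04) and did not fall in 2102EP-C1 (0.07, adjusted p = 0.1). The share of single genes in the sums was not tested. Yolk sac and trophoblast markers (3 and 4 of 8 listed, with APOA1, CGA, FOXA2 and SOX17 in neither table) summed to 4.90 to 6.24 CPM untreated and 9.04 to 10.9 with GSK-J4 in NT2/D1-A4, and to 5.97 to 6.5 and 8.88 to 10.8 in 2102EP-C1.

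In the GSK-J4 experiments cisplatin alone gave fewer calls among the members, and no change past 1.3-fold, which 0.396% of all genes passed downward and 2.05% upward in NT2/D1-A4 and 0.188% and 0.881% in 2102EP-C1. In NT2/D1-A4 17 of 56 fell and none rose (30.4%), beside 3.58% of all genes that fell and 5.85% that rose, and 6.58% and 6.43% of genes at or above 5 log2 CPM. At an unadjusted p below 0.05, 35 were lower and 1, HNRNPLL, was higher, and limma-voom on the recovered reads also had no rise. The median was -0.11. The count depended on the scaling and on single libraries: 9 fell with library size scaling, 4 with quantile normalization, 4 without the first untreated library and 30 without the third combination library. In 2102EP-C1 8 of 57 fell and 1 rose (14% and 1.75%), beside 1.02% and 3.06% of all genes and 2.17% and 4.76% at the higher level, with a median of -0.08. That count of 9 became 3 without the third cisplatin library and 24 without the third GSK-J4 library. In pLKO1 cells, sequenced more deeply, 42 of 56 fell and 1 rose (75% and 1.79%), beside 18.2% and 17.9% of all genes and 31.5% and 25.9% at the higher level. The median there was -0.10, and again no change was past 1.3-fold (0.462% and 2.53% of all genes).

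Cisplatin libraries lay wholly below untreated ones for 38 members in NT2/D1-A4, 42 in 2102EP-C1 and 44 in pLKO1 cells, and wholly above for 2, 1 and 4. Of all genes 15.4%, 14.1% and 25.3% lay wholly below (24.7%, 23.1% and 38.4% at the higher level) and 17.1%, 14% and 23.9% wholly above (19.5%, 18% and 31.6%). HNRNPA2B1, HNRNPDL, HNRNPH1, HNRNPH3 and SRSF1 fell in all 3 tables. Falls shared between tables were not counted over all genes. HNRNPA2B1 (GeneID 3181, chr7:26189927-26200746) was at 11.06, 11.02 and 11.02 log2 CPM untreated and 10.88, 10.86 and 10.85 with cisplatin in NT2/D1-A4, a fall of 0.17, and its falls in 2102EP-C1 and pLKO1 cells were 0.13 and 0.06. HNRNPH1 (GeneID 3187, chr5:179614178-179634784), which binds runs of G, was at 9.82, 9.81 and 9.81 untreated and 9.67, 9.68 and 9.69 with cisplatin in NT2/D1-A4. It fell by 0.13, 0.12 and 0.10 in the 3 tables. All 8 members that fell in 2102EP-C1 also fell in pLKO1 cells, where they are 19% of the 42, and SRSF8 rose in both (by 0.25 and 0.15). By family, the hnRNPs held 11 of the 17 falls in NT2/D1-A4 and 5 of the 8 in 2102EP-C1, whereas in pLKO1 cells all 11 Sm and snRNP genes fell, with 14 of 22 hnRNPs, 9 of 11 SF3 and U2AF genes and 8 of 12 SR proteins. In pLKO1 cells the change with cisplatin moved with the length of the canonical transcript (Spearman rho 0.38 across all genes, 0.61 at the higher level and 0.50 across the members), and the Sm and snRNP genes have the lowest median length of the 4 families (1082 bases). With a smooth trend over length and GC content removed, all 11 Sm and snRNP genes still fell, with a median of -0.09 in place of -0.14, beside 16 hnRNPs, 7 SF3 and U2AF genes and 9 SR proteins. The part of length in the falls was otherwise not tested.

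The combination of GSK-J4 and cisplatin, against untreated cells, gave the largest median changes. In NT2/D1-A4 39 members fell and 3 rose, beside 26.5% and 27.5% of all genes and 42.8% and 24.5% at the higher level, with a median of -0.25, and 11 falls and 1 rise were past 1.3-fold (9.56% and 15.9% of all genes). In 2102EP-C1 41 fell and 3 rose, beside 25.6% and 27.4% of all genes and 35.7% and 32.2% at the higher level, with a median of -0.22, and 7 falls and 3 rises were past 1.3-fold (9.77% and 12.8% of all genes). SRSF2 (-0.63), SF3B5 (-0.54) and HNRNPDL (-0.53) led in 2102EP-C1, and SF3A2 (-0.61), HNRNPDL (-0.57) and SRSF11 (-0.54) in NT2/D1-A4. Cisplatin given after GSK-J4, against GSK-J4 alone, lowered 1 member in NT2/D1-A4, HNRNPH1 (by 0.15, adjusted p = 0.0207), beside 0.548% of all genes that fell and 0.712% that rose (0.63% and 1.03% at the higher level), with a median of -0.06. Without the first combination library the count was 9. In 2102EP-C1 the same comparison gave 17 falls and 1 rise, beside 8.1% and 7.64% of all genes, and 13.2% and 13.7% at the higher level. There the change of a gene moved with its GC content (Spearman rho -0.43 across all genes and -0.47 across the members), and with the length and GC trend removed 29 members fell and 1 rose. The share of all genes with that trend removed is not given.

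Whether GSK-J4 changed the response to cisplatin was tested by the interaction term. In NT2/D1-A4 limma gave no member an adjusted p below 0.05, with 2 at an unadjusted p below 0.05 and none with limma-voom, beside 0.0426% of all genes lower and 0% higher (0.0175% and 0% at the higher level). In 2102EP-C1 it gave 1, HNRNPH3 (GeneID 3189, chr10:68331693-68343196), a relative of HNRNPH1, beside 1.64% lower and 0.734% higher of all genes (3.19% and 1.69% at the higher level). HNRNPH3 was at 8.55, 8.59 and 8.55 log2 CPM untreated, 8.46, 8.43 and 8.43 with cisplatin, 8.51, 8.48 and 8.61 with GSK-J4, and 8.64, 8.61 and 8.55 with both. Its change with cisplatin was -0.12 without GSK-J4 and 0.06 after it, a difference of 0.18 (SE 0.05, adjusted p = 0.0336). With the replicate number as a block its adjusted p was 0.0522, with the trend over transcript length and GC content removed the difference was 0.09 (adjusted p = 0.131), and the call was lost in 10 of 12 fits without 1 library. Without the third GSK-J4 library 16 members had an adjusted p below 0.05 in 2102EP-C1, 13 with a difference above 0 and 3 below it. The share of all genes called in that fit is not given.

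Knockdown of KDM6A and KDM6B gave a mixed picture. With sh6A+6B alone 30 of 56 members fell and 9 rose (53.6% and 16.1%), beside 27.2% and 25.6% of all genes and 36.3% and 29.5% at the higher level. The median was -0.05, and 2 falls and no rise were past 1.3-fold (5.74% and 6.34% of all genes). The split depended on the scaling, since quantile normalization gave 17 falls and 14 rises and library size scaling 26 and 10. Libraries lay wholly below the pLKO1 ones for 29 members and wholly above for 9, beside 29.9% and 28.3% of all genes (39% and 31.7% at the higher level). The hnRNPs counted 12 falls and 3 rises, the SF3 and U2AF genes 7 and 1, the Sm and snRNP genes 7 and 0, and the SR proteins 4 and 5. The calls among SR proteins ran from 4 to 9 over the fits without 1 library, with 0 to 5 rises. With the length and GC trend removed 38 members fell and 6 rose, and among SR proteins 5 fell and 0 rose.

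HNRNPD (GeneID 3184, chr4:82352498-82373991), which binds AU-rich elements and guides the decay of the messages that carry them, had the largest fall of any member. It was at 9.68, 9.72 and 9.69 log2 CPM in pLKO1 cells, 9.59, 9.60 and 9.62 with cisplatin, 9.19, 9.16 and 9.29 with sh6A+6B, and 9.03, 8.99 and 9.07 with sh6A+6B and cisplatin. The 4 arms did not overlap, and sh6A+6B lowered it by 0.48 (SE 0.02, adjusted p = 3.67e-14), beside falls of 0.19 and 0.14 with GSK-J4 in NT2/D1-A4 and 2102EP-C1. HNRNPDL, which lies near it on chromosome 4, was at 8.88, 8.91 and 8.88 with pLKO1 and 8.99, 8.96 and 9.01 with sh6A+6B, a rise of 0.10 (adjusted p = 1.51e-05) where GSK-J4 had lowered it.

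U2AF1L4, a paralog of the small U2AF subunit (GeneID 199746, chr19:35742464-35745418), was at 2.01, 1.96 and 1.88 log2 CPM with pLKO1, 1.64, 1.82 and 1.73 with cisplatin, 1.48, 1.64 and 1.5 with sh6A+6B, and 1.28, 1.38 and 1.38 with both, on 205 to 360 reads. It fell by 0.41 with sh6A+6B (SE 0.07, adjusted p = 5.59e-05), and under GSK-J4 it differed by -0.16 (NT2/D1-A4) and -0.03 (2102EP-C1), neither past the test. SF3B3, which scaffolds the SF3B complex, fell by 0.31, and SF3A2 by 0.16. SF3B2 was at 8.36, 8.38 and 8.33 with pLKO1 and at 8.41 in each of the sh6A+6B libraries, a rise of 0.05 (adjusted p = 0.0107) that was lost without the third pLKO1 library (adjusted p = 0.09).

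Of the remaining members in the knockdown table, SRSF2 fell by 0.07 (8.61, 8.61 and 8.64 against 8.59, 8.52 and 8.53 log2 CPM, adjusted p = 0.00216), but not under quantile normalization (-0.03, adjusted p = 0.24). SRSF8 rose by 0.14 (3.56, 3.70 and 3.75 against 3.81, 3.86 and 3.75, adjusted p = 0.0189), with overlapping arms. SRSF12 rose by 0.21 (1.78, 1.91 and 1.83 against 2.19, 2.01 and 1.97, adjusted p = 0.0231), and the call was lost without pLKO1 library 1 or 3, without the first sh6A+6B library and with the length and GC trend removed. HNRNPA1L2 rose by 0.20 (2.49, 2.34 and 2.31 against 2.54, 2.55 and 2.64, adjusted p = 0.0248) and lost the call without pLKO1 library 2 or 3 or sh6A+6B library 3. SNRPB2 of U2 (GeneID 6629, chr20:16730026-16742564) was at 7.80, 7.86 and 7.77 against 7.79, 7.76 and 7.83, a difference of -0.02 (interval -0.06 to 0.03, adjusted p = 0.536).

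In all 3 experiments, pretreatment alone lowered 14 members: HNRNPA3, HNRNPAB, HNRNPD, HNRNPF, HNRNPL, HNRNPM, SF3A1, SF3A2, SF3B4, SNRPA1, SNRPC, SNRPD3, SRSF2 and SRSF9. About as many common falls follow from the separate counts alone, and the share of all genes that fell in all 3 was not counted. SRSF8 alone rose in all 3. Between the GSK-J4 and knockdown experiments on 2102EP-C1 cells, 21 members fell in both, 52.5% of the 40 with GSK-J4 and 70% of the 30 with sh6A+6B, 3 rose in both and 5 were called in opposite directions. With 40 and 30 of 55 members falling, an overlap near 21 follows from the separate counts alone. The share of all genes that fell in both was not counted. The log2 changes of 55 members had a Pearson r of 0.23 and a Spearman rho of -0.10. Summed pluripotency markers went from 12240 to 12294 CPM with pLKO1 to 11570 to 11696 with sh6A+6B, proliferation markers from 4572 to 4631 to 4033 to 4090, and yolk sac and trophoblast markers (3 of 8 listed) from 5.8 to 6.0 to 5.43 to 5.58. Their part in the splicing result was not tested, nor was the share of single genes in these sums.

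**Figure D3:**
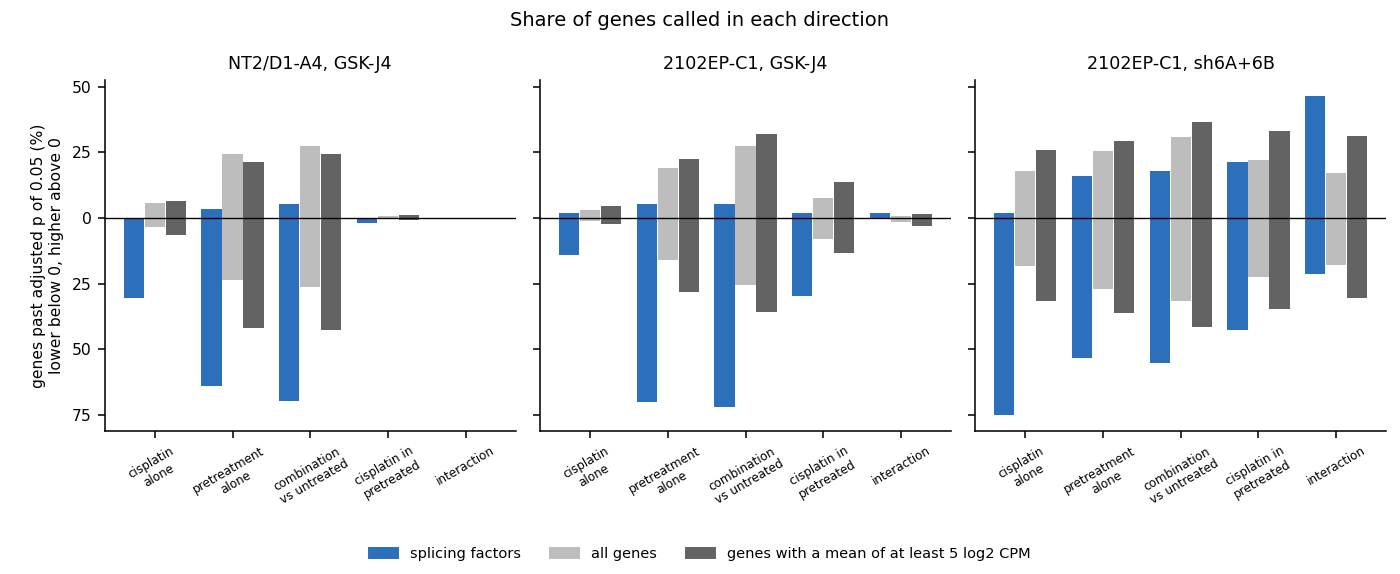
Percent (y axis, from 0) of members, of all genes and of genes with a mean of at least 5 log2 CPM that were lower or higher at an adjusted p below 0.05, in 5 comparisons of each of the 3 tables (x axis). Members are lower more often than both backgrounds for pretreatment alone in the GSK-J4 tables (64.3% and 70.2%) and for cisplatin alone in pLKO1 cells (75%).

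Many members responded to cisplatin differently with sh6A+6B than with pLKO1, as did many other genes, and the families differed in direction. By the interaction term 26 of 56 members responded more upward and 12 more downward to cisplatin with sh6A+6B than with pLKO1 (46.4% and 21.4%), beside 17.2% and 18% of all genes and 31.2% and 30.6% at the higher level. All 11 Sm and snRNP genes were among the 26, with 5 SR proteins, 4 SF3 and U2AF genes and 6 hnRNPs, and 10 of the 12 on the other side were hnRNPs. The median change with cisplatin went from -0.14 in pLKO1 to 0.03 in sh6A+6B cells for the Sm and snRNP genes, from -0.09 to 0.00 for SR proteins and from -0.09 to -0.04 for SF3 and U2AF genes. For hnRNPs it went from -0.08 to -0.15. Over the fits without 1 library 9 to 11 of the Sm and snRNP genes kept an adjusted p below 0.05, all upward.

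**Figure D4:**
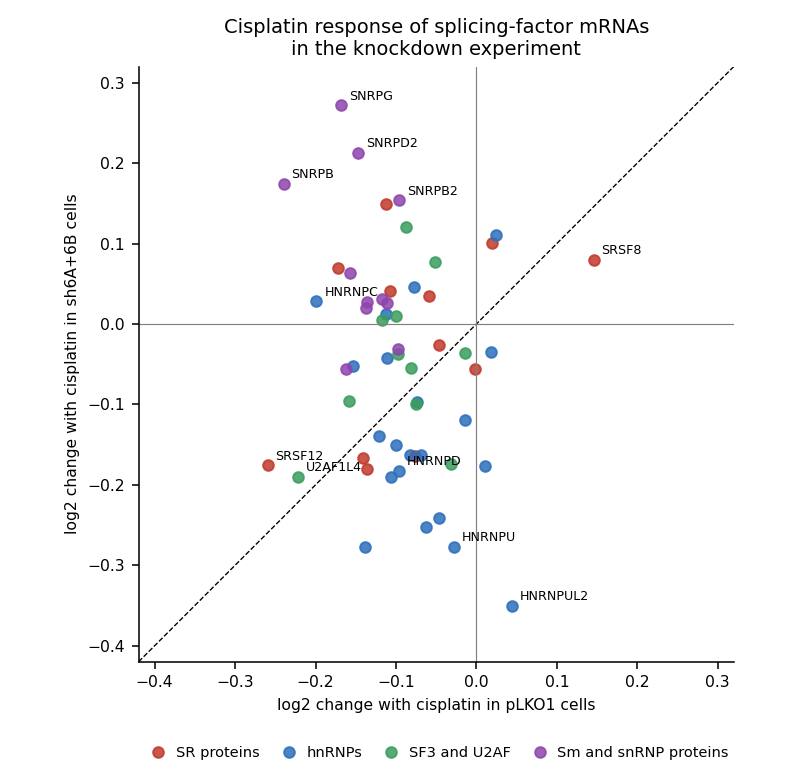
Log2 change with cisplatin in pLKO1 cells (x axis) and in sh6A+6B cells (y axis) for each member with a mean of at least 1 log2 CPM in the knockdown table, coloured by subfamily, with a dashed line where the 2 are equal. All 11 Sm and snRNP genes lie above the line, and most hnRNPs below it, with SNRPG and HNRNPUL2 at the extremes.

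Transcript length moved with this result. Across 15220 genes with a length, the interaction term had a Spearman rho of -0.52 with the length of the canonical transcript, across genes with a mean of at least 5 log2 CPM -0.68, and across the 56 members -0.45. The Sm and snRNP genes are short, with a median canonical transcript of 1082 bases, against 2146 for SF3 and U2AF genes, 3068 for hnRNPs and 3774 for SR proteins. With a smooth trend over length and GC content removed from each library, an alternative added after the data were seen, 17 members were higher and 16 lower. The Sm and snRNP genes then had 6 calls of 11, all upward, with a median of 0.07 in place of 0.16, and the hnRNPs 11 downward and 5 upward. Why short transcripts stood apart was not tested.

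SNRPG had the largest difference. It was at 6.73, 6.77 and 6.72 log2 CPM in pLKO1 cells, 6.56, 6.55 and 6.60 with cisplatin, 6.67, 6.69 and 6.74 with sh6A+6B, and 7.02, 6.95 and 6.94 with sh6A+6B and cisplatin. Cisplatin libraries were the lowest with pLKO1 and the highest with sh6A+6B, with no overlap in either. Cisplatin changed it by -0.17 in pLKO1 and by 0.27 in sh6A+6B cells, a difference of 0.44 (SE 0.03, adjusted p = 3.51e-10), and of 0.22 with the length and GC trend removed (adjusted p = 1.07e-07).

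SNRPB (GeneID 6628, chr20:2461642-2470789), the ring protein B, was at 8.53, 8.51 and 8.52 log2 CPM in pLKO1 cells, 8.27, 8.27 and 8.29 with cisplatin, 8.25, 8.36 and 8.35 with sh6A+6B, and 8.47, 8.55 and 8.46 with both. It fell by 0.24 with cisplatin in pLKO1 cells and by 0.20 with sh6A+6B alone (adjusted p = 2.49e-07), and it rose by 0.17 with cisplatin in sh6A+6B cells. The difference in response was 0.41 (SE 0.03, adjusted p = 1.43e-09), or 0.31 without the length and GC trend. In untransduced 2102EP-C1 cells the corresponding difference for GSK-J4 was -0.11 (adjusted p = 0.394), with SNRPB at 8.66, 8.57 and 8.60 untreated and 8.14, 8.20 and 8.23 with both agents.

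SNRPD2 was at 7.32, 7.30 and 7.30 log2 CPM in pLKO1 cells, 7.14, 7.15 and 7.18 with cisplatin, 7.18, 7.26 and 7.25 with sh6A+6B, and 7.47, 7.47 and 7.38 with both. Its change with cisplatin was -0.15 in pLKO1 and 0.21 in sh6A+6B cells, a difference of 0.36 (SE 0.03, adjusted p = 6.98e-09), or 0.23 without the length and GC trend. The 8 other genes of the group had differences from 0.07 (SNRPD3) to 0.25 (SNRPB2). Beyond the Sm and snRNP genes, SRSF7 and SRSF3, small SR proteins that also take part in mRNA export, had differences of 0.26 and 0.24, and HNRNPC, which binds U tracts, 0.23.

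HNRNPUL2 (GeneID 221092, chr11:62712630-62727457), an hnRNP U-like protein that takes part in the repair of broken DNA, had the largest difference in the other direction. It was at 5.6, 5.58 and 5.57 log2 CPM in pLKO1 cells, 5.63, 5.62 and 5.64 with cisplatin, 5.48, 5.42 and 5.42 with sh6A+6B, and 5.09, 5.08 and 5.11 with both. Only the last arm stood far from the rest. Cisplatin changed it by 0.04 in pLKO1 cells (adjusted p = 0.170) and by -0.35 in sh6A+6B cells, a difference of -0.39 (SE 0.03, adjusted p = 3.34e-09), or -0.29 without the length and GC trend (adjusted p = 6.76e-09). Its reads can be shared with the readthrough gene HNRNPUL2-BSCL2, which overlaps it on the same strand. HNRNPU, the scaffold-binding hnRNP, had a difference of -0.25 and HNRNPM of -0.20.

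**Figure D5:**
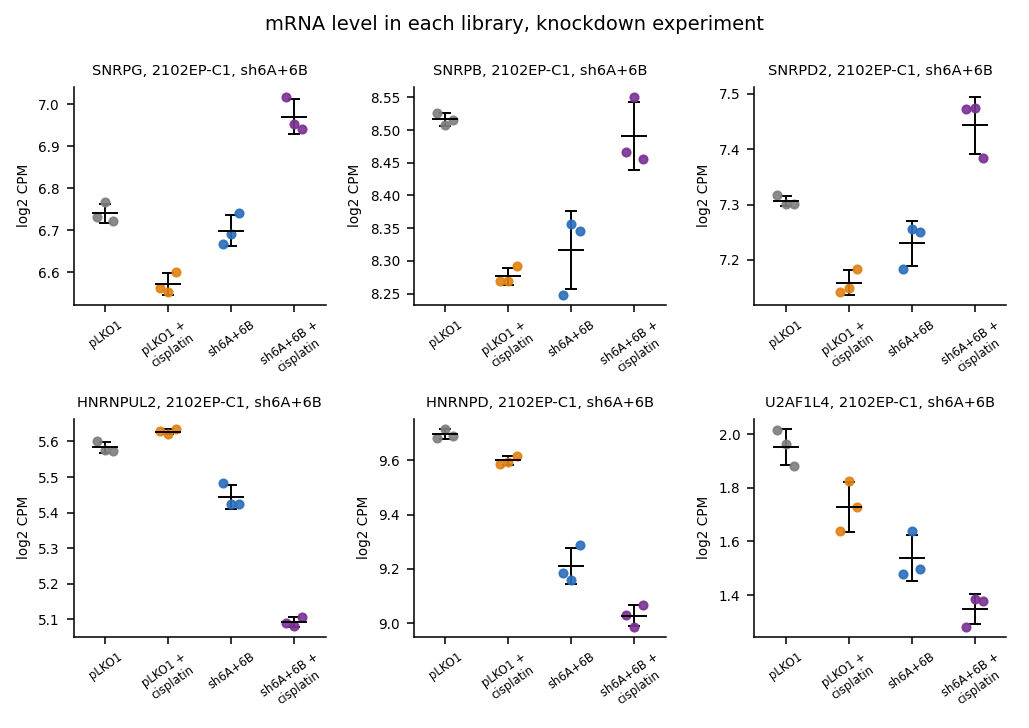
Log2 CPM (y axis) of each library by arm (x axis: pLKO1, pLKO1 and cisplatin, sh6A+6B, sh6A+6B and cisplatin) for SNRPG, SNRPB, SNRPD2, HNRNPUL2, HNRNPD and U2AF1L4 in the knockdown experiment, with points for libraries and bars for mean and SD (n = 3). The 3 Sm ring genes are lowered by cisplatin in pLKO1 cells and raised by it in sh6A+6B cells, while HNRNPUL2 is lowest with both.

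In sh6A+6B cells, then, cisplatin lowered 24 members and raised 12, beside 22.7% and 22.1% of all genes and 34.6% and 33.2% at the higher level, with a median of -0.04. Of the Sm and snRNP genes 5 rose and 0 fell, and of the hnRNPs 16 fell and 2 rose. With the length and GC trend removed, 35 members fell and 8 rose, and the Sm and snRNP genes had 5 falls and 3 rises. The shares of all genes in this paragraph come from the fit without that removal. Against untreated pLKO1 cells, sh6A+6B and cisplatin together lowered 31 and raised 10, beside 31.7% and 30.9% of all genes and 41.5% and 36.6% at the higher level, with 24 and 13 under quantile normalization and 42 and 6 with the length and GC trend removed. Of these, 4 falls and no rise were past 1.3-fold (7.5% and 8.51% of all genes). Among cisplatin-treated cells, 19 members were lower and 21 higher with sh6A+6B than with pLKO1, beside 30.7% and 30.9% of all genes (39.3% and 39% at the higher level), and 32 were lower and 13 higher with that trend removed. With GSK-J4 the same comparison among cisplatin-treated cells gave 33 lower and 4 higher in NT2/D1-A4, beside 24.2% and 24.1% (39% and 22.1% at the higher level), and 34 and 6 in 2102EP-C1, beside 23.9% and 25.5% (33% and 31.9%).

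Other genes of the splicing pathway were counted by lists. Beside them, 23.8%, 16% and 27.2% of all genes fell with pretreatment alone in NT2/D1-A4, 2102EP-C1 and the knockdown table (41.8%, 28.2% and 36.3% at the higher level). The shares that rose were 24.5%, 19.2% and 25.6% (21.2%, 22.4% and 29.5%). Of 12 SR-related proteins, among them the SR-like cofactors PNN and TRA2A, all 12 fell with GSK-J4 alone in NT2/D1-A4 and in 2102EP-C1, and 4 fell and 3 rose with sh6A+6B. Of 30 further proteins of the U1, U2 and U4/U6.U5 snRNPs, 25 fell and 1 rose in NT2/D1-A4 and 17 and 2 in 2102EP-C1, with PRPF3 at -0.62 and LUC7L3 at -0.38 in the respective table, and 12 fell and 4 rose with sh6A+6B. The 17 genes of Sm ring assembly and snRNA export counted 12, 10 and 8 falls and 0, 0 and 3 rises in the 3 tables. In the knockdown interaction 11 of these 17 responded more upward to cisplatin and none more downward (2 had been raised and 10 lowered by cisplatin in pLKO1 cells), as did 5 of the 7 LSM ring genes, while 8 of the 12 SR-related proteins responded more downward, SRRM2 by -0.48. Beside these, 17.2% of all genes responded more upward and 18% more downward (31.2% and 30.6% at the higher level). The interaction term moved with transcript length, and the part of length in these counts was not tested.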

How the data were processed

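Poly(A) RNA was sequenced from 36 libraries (stranded mRNA kit), 12 in each of 3 experiments. After trimming (Trimmomatic), alignment to GRCh38.p14 (STAR), gene counting (featureCounts), a filter at 0.5 CPM in at least 2 libraries and TMM scaling, the authors deposited log2 CPM, 1 table per experiment. The strand setting of the counting is not given in the sources used here. Total reads were recovered from the steps between low values: 100% of the values under 50 reads were whole within 0.05 of a read. Depth limits the members below 3 log2 CPM, whose reads are given beside them.

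Symbols and coordinates came from RefSeq through the NCBI gene identifiers, which matched 16414, 17020 and 16443 of the 16431, 17035 and 16459 genes. Each table was fitted whole, all 4 arms together, with limma 3.58.1 (trend; R 4.3.3) on the deposited log2 CPM, and p-values were adjusted over all genes of the table per comparison (Benjamini-Hochberg) at a threshold of 0.05. A second count asked for a change past 1.3-fold. The code was checked on simulated data. Alternatives were limma-voom on the recovered reads, only the 6 libraries compared, library size and quantile scaling, a prior count of 0.5, a mean above 1 log2 CPM, a replicate block, leaving out each library in turn and, added after the data were seen, removal of a spline trend (4 degrees of freedom) over transcript length and GC content. RPKM used the canonical transcript of each gene. Nothing in the labels says how far the triplicates were kept apart, so p-values measure the spread between these libraries.

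The members and the lists were chosen with earlier results of these data known. Members are described library by library when they were past the threshold and 1.3-fold with pretreatment alone, with cisplatin alone or with cisplatin in pretreated cells, or past the threshold in the interaction, up to 4 per table and comparison, and when they had the largest fall or rise of a family with pretreatment alone. Members under a mean of 1 log2 CPM were counted and not named with changes. SRSF1, HNRNPA2B1, HNRNPH1 and values of a described member in a further table were added after their values were seen. Same-numbered libraries were checked for shared deviations over 18 pairs per table. Correlations ran from -0.183 to 0.277, from -0.125 to 0.1 and from -0.167 to 0.313, with 3, 0 and 5 pairs over 0.1. Pairs with different numbers were not compared, so this check cannot settle whether the numbers pair the libraries. The main fits have no block, and a block by replicate number was an alternative.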

Additional observations from a re-analysis of the deposited data

Results flagged for a closer look

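The response to cisplatin differed between cells with and without pretreatment, by the interaction term of limma at an adjusted p below 0.05, for the following members. Values are differences in log2 change (response with pretreatment minus response without it), and each rests on 3 libraries per arm. In 2102EP-C1 with GSK-J4 the difference was 0.18 for HNRNPH3.

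In the knockdown experiment the Sm and snRNP genes all responded more upward with sh6A+6B: SNRPG by 0.44, SNRPB by 0.41, SNRPD2 by 0.36, SNRPB2 by 0.25, SNRPC by 0.22, SNRPD1 by 0.16, SNRPF by 0.16, SNRPE by 0.15, SNRPA1 by 0.14, SNRPA by 0.10 and SNRPD3 by 0.07. Among SR proteins SRSF7 (0.26), SRSF3 (0.24), SRSF6 (0.15), SRSF2 (0.09) and SRSF5 (0.08) responded more upward, and SRSF1 (-0.09) more downward. In the SF3 group SF3B5 (0.21), SF3B1 (0.13), SF3B6 (0.12) and SF3A3 (0.11) responded more upward, and SF3A1 (-0.14) more downward. Of the hnRNPs, HNRNPC (0.23), HNRNPF (0.12), HNRNPK (0.12), HNRNPL (0.10), HNRNPLL (0.09) and HNRNPDL (0.07) responded more upward. The other 10 hnRNPs responded more downward: HNRNPUL2 (-0.39), HNRNPU (-0.25), HNRNPM (-0.20), HNRNPA2B1 (-0.19), HNRNPA3 (-0.19), HNRNPUL1 (-0.14), HNRNPA0 (-0.11), HNRNPD (-0.09), HNRNPH3 (-0.09) and HNRNPR (-0.08). In this table the interaction moved with transcript length across all genes, as given in the report, and the part of length was not tested.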

How the results depend on the processing

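For cisplatin alone in NT2/D1-A4 the 17 calls among members became 32 with only the 6 libraries compared, 9 with library size scaling, 4 with quantile normalization and 30 with the length and GC trend removed, and ran from 4 to 30 over the fits without 1 library. The 9 calls in 2102EP-C1 became 32 with only the 6 libraries and 23 with the length and GC trend removed, and ran from 3 to 24. For cisplatin within GSK-J4-treated cells, the 1 call in NT2/D1-A4 became 0 with only the 6 libraries, 0 with quantile normalization, 2 above a mean of 1 log2 CPM, 3 with limma-voom and 14 with the length and GC trend removed, and ran from 0 to 9, while the 18 in 2102EP-C1 became 30 with that trend removed. The 1 interaction call in 2102EP-C1 became 0 with that trend removed and ran from 0 to 16. The cause of these moves was not tested, and shares of all genes under these alternatives are not given. With pretreatment alone, SF3B2 in 2102EP-C1 turned from -0.01 to 0.00555 (library size), 0.0208 (quantile) and 0.00558 (length and GC trend removed), and SNRPB2 in the knockdown table ran from -0.0372 to 0.00628 without 1 library. Over 595 alternatives to the 30 values of named members, 553 kept direction and side of the threshold, 31 lost the call, 7 gained it and 4 turned sign.

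With the replicate number as a block, which the labels do not tie to shared cultures, the interaction in 2102EP-C1 had 0 calls in place of 1 (HNRNPH3 0.184, adjusted p = 0.0522), and no other count of calls among members moved by over 1.5 times. The values of members at low reads (SRSF8, SRSF12, HNRNPA1L2, U2AF1L4) are limited by depth.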

Other observations

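Genes around the members were counted from lists, with limma on log2 CPM as in the report. With pretreatment alone 23.8%, 16% and 27.2% of all genes fell in NT2/D1-A4, 2102EP-C1 and the knockdown table, and 24.5%, 19.2% and 25.6% rose. Several of the counts below lie near these shares. With GSK-J4 alone 23 of 36 other splicing regulators fell and none rose in NT2/D1-A4, led by ESRP1, an epithelial splicing factor, at -0.84, while in 2102EP-C1 18 of 37 fell and 2 rose and with sh6A+6B 16 fell and 9 rose. Of 28 Prp19 complex and catalytic-step factors 16 fell and 3 rose in NT2/D1-A4, 8 and 5 in 2102EP-C1 and 7 and 4 with sh6A+6B. The LSM ring, which binds U6, counted 1 fall and 1 rise of 7 in NT2/D1-A4, 3 falls in 2102EP-C1 and 1 with sh6A+6B. Of 12 minor spliceosome genes 2 fell and 1 rose in each line with GSK-J4, and 3 fell and 3 rose with sh6A+6B. Of 7 SR protein kinases and importer genes, which place and move SR proteins, 2 fell in each line with GSK-J4, and 1 fell and 1 rose with sh6A+6B. The exon junction complex counted 3, 1 and 1 falls of 5 in the 3 tables, with 1 rise with sh6A+6B.

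Nonsense-mediated decay, which degrades transcripts with early stop codons and takes part in SR protein autoregulation, counted 4 falls and 2 rises of 10 in NT2/D1-A4, 2 rises in 2102EP-C1, and 1 fall and 6 rises with sh6A+6B. SMG1, the kinase of this pathway, was at -0.58 with GSK-J4 in NT2/D1-A4 and at -0.43 with sh6A+6B, and SMG9 at 0.47 with sh6A+6B. In the knockdown interaction 8 of the 10 responded more downward to cisplatin with sh6A+6B and none more upward, SMG1 by -0.44. The other lists counted, in that interaction, 4 upward and 1 downward of 5 exon junction genes, 12 and 3 of 28 Prp19 and catalytic-step factors, 9 and 8 of 30 further snRNP proteins, 6 and 15 of 37 other regulators, 3 and 0 of 12 minor spliceosome genes, 1 and 1 of 7 kinases and importer genes, and 10 and 2 of 16 proliferation genes. All of these lie on the same interaction term that moved with transcript length. By that term 17.2% of all genes responded more upward and 18% more downward.

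Fibroblast markers (4 of 8 listed, with COL3A1, DCN, LUM and FAP in no table) summed to 125.4 to 129.3 CPM in untreated NT2/D1-A4 and 95.73 to 104.8 with GSK-J4, to 181.9 to 187 and 155.4 to 170.6 in 2102EP-C1, and to 181.4 to 188.4 with pLKO1 and 218.3 to 229.8 with sh6A+6B. Leukocyte markers (1, 3 and 2 of 7 listed) summed to at most 3.474 CPM in any library.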
